A study of Mus musculus with 4 samples.

Results

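Interferon-induced genes were examined in mouse ear skin with and without an epithelial knockout of Traf6 and with and without imiquimod. The 49 genes were listed for what they are known to do, with earlier results of these data known. Of them, 33 were listed as antiviral genes of the type I interferon response and 16 as genes typical of the type II (interferon-gamma) response. A member was read from a probe set that the platform annotation pairs with its symbol alone, and with several such probe sets the brightest over the 4 arrays was used. This gave 43 measured members of 19938 named genes, namely 31 antiviral and 12 interferon-gamma-type genes. Isg15, Gbp2, Gbp6, Igtp and Irgm2 share their probe set with other genes and Ifi44 was not listed with one, so these 6 have no value here.

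The RNA came from whole ears of 8-week-old female mice, and each group was read on 1 Affymetrix Mouse Gene 1.0 ST array, 4 in all. The groups were Traf6EKO skin with imiquimod (EKO IMQ), Traf6f/f skin with imiquimod (f/f IMQ), Traf6EKO skin without it (EKO untreated) and Traf6f/f skin without it (f/f untreated). Traf6EKO mice lack Traf6 in epithelium (in keratinocytes, by the series' title), Traf6f/f mice carry the floxed gene undeleted, and the sources used here do not name the promoter that drives the deletion. Imiquimod (IMQ), an agonist of the RNA sensor TLR7, was put on the ear as a cream at 10 mg per day for 2 days. The series' description gives n = 2, but each group has 1 array, so no value has a replicate error, no difference below was tested, and pooling of RNA is not stated in the sources used here. All levels and differences are log2 values unless a fold is named. The number of arrays limits the precision.

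Array medians lay between 6.52 and 6.57. Traf6 was at 9.35 in EKO IMQ and 9.30 in f/f IMQ skin, and at 9.65 in EKO untreated and 9.51 in f/f untreated skin, so it was not lower on the EKO arrays. Whole ear also holds non-epithelial cells, and the probes may lie outside the deleted exons, so this does not check the labels. The 6 measured markers of epidermal keratinocytes, such as Krt5 and Krt10, lay between 10.59 and 13.12 on the 4 arrays. In whole skin, fewer cells of a type and less RNA per cell cannot be told apart.

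Type I interferons signal through a complex that holds STAT2 and IRF9 and binds the interferon-stimulated response element (ISRE) in promoters of antiviral genes. Interferon-gamma acts mainly through the gamma-activated site (GAS) and induces IRF1, the GBP and IRG GTPases and the antigen-processing machinery. The programs overlap, since IRF1 also binds ISRE-like sequence. In skin, TLR7 agonists act first on plasmacytoid dendritic cells and other myeloid cells, and keratinocytes respond to the interferons these release.

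RefSeq promoter windows of build GRCm38.p6, 300 bases running from 250 before to 50 after an annotated start, were found for 35 of the 49 members. An ISRE-type match was defined as GAAA, any 2 bases and GAAA again, or on the other strand TTTC, any 2 bases and TTTC, and a GAS-type match as TTCNNNGAA, which reads the same on both strands in its fixed letters. Matches may overlap. Of 23 antiviral members with a window, 11 (47.8%) held an ISRE-type match and 6 (26.1%) a GAS-type match. Of 12 interferon-gamma-type members, 8 (66.7%) held an ISRE-type and 6 (50%) a GAS-type match. Across all 27025 genes with a window, 3.99% held an ISRE-type and 9.55% a GAS-type match. Among all 32851 windows of this length the shares were 3.44% and 8.3%. A match is a description of letters, and its absence says only that they are not in this window. The 250 bases before the start are printed 5′ to 3′ for antiviral genes that were higher with IMQ in f/f skin (Oas3, Oas1a, Bst2), for Ifit1, which differed little, and for a Gbp and an Irg gene that were highest in f/f untreated skin, so that the letters can be read beside the levels below. Capitals mark ISRE-type and GAS-type matches. Each printed window holds a match, but not every gene higher with IMQ in f/f does. Cd274 (f/f difference 1.02), Irf7 (0.56) and Oasl1 (0.55), for example, have a window without a match of either kind.
Oas3 (chr5:120777660-120777909, minus strand): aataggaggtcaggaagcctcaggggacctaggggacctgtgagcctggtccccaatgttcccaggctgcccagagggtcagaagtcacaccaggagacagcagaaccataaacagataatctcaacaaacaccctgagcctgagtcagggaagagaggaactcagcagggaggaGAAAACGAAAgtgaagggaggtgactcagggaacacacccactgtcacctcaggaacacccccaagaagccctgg
Oas1a (chr5:120907526-120907775, minus strand): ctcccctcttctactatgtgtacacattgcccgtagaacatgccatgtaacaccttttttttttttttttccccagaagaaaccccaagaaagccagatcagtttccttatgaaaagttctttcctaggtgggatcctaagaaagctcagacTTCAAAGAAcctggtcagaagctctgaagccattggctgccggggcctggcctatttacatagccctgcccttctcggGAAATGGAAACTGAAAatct
Bst2 (chr8:71537473-71537722, minus strand): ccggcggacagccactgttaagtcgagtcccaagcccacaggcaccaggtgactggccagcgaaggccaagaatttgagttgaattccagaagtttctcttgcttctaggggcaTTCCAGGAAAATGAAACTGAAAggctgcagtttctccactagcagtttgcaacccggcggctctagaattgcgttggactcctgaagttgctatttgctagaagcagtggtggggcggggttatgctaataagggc
Ifit1 (chr19:34640639-34640888, plus strand): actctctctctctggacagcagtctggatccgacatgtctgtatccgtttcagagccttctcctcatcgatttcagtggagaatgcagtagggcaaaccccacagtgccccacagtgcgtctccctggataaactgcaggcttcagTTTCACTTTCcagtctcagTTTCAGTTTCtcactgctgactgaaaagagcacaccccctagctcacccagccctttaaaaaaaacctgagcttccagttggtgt
Gbp7 (chr3:142530086-142530335, plus strand): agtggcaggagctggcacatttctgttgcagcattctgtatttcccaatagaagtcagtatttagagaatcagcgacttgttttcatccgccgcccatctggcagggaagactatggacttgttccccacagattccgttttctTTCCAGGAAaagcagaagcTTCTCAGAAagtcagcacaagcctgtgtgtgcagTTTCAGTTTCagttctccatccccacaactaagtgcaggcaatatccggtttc
Irgm1 (chr11:48871421-48871670, minus strand): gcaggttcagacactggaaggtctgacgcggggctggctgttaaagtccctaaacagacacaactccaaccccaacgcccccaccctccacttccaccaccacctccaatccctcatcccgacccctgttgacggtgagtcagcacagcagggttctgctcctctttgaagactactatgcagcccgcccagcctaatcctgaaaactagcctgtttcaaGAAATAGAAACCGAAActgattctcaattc
Oas3 held 1 ISRE-type match, which began 75 bases before the start, and no GAS-type match. Oas1a held 2 overlapping ISRE-type matches and 1 GAS-type match. In Bst2 the GAS-type match ran into the first of 2 ISRE-type matches. Ifit1 held 2 separate ISRE-type matches, Gbp7 1 ISRE-type and 2 GAS-type matches, and Irgm1 2 overlapping ISRE-type matches. The antiviral members with an ISRE-type match had a median IMQ difference in f/f skin of 0.27 (10 measured), against 0.16 for those with a window but no match (11 measured), and in EKO skin the medians were -0.07 and -0.12. Split by GAS-type match, the antiviral medians in f/f were 0.35 with a match (6 measured) and 0.15 without (15 measured). Among interferon-gamma-type members the f/f median was -0.16 with an ISRE-type match (5 measured) and -0.03 without (4 measured), and -0.23 with a GAS-type match (4 measured) and -0.07 without (5 measured).

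**Figure D1:**
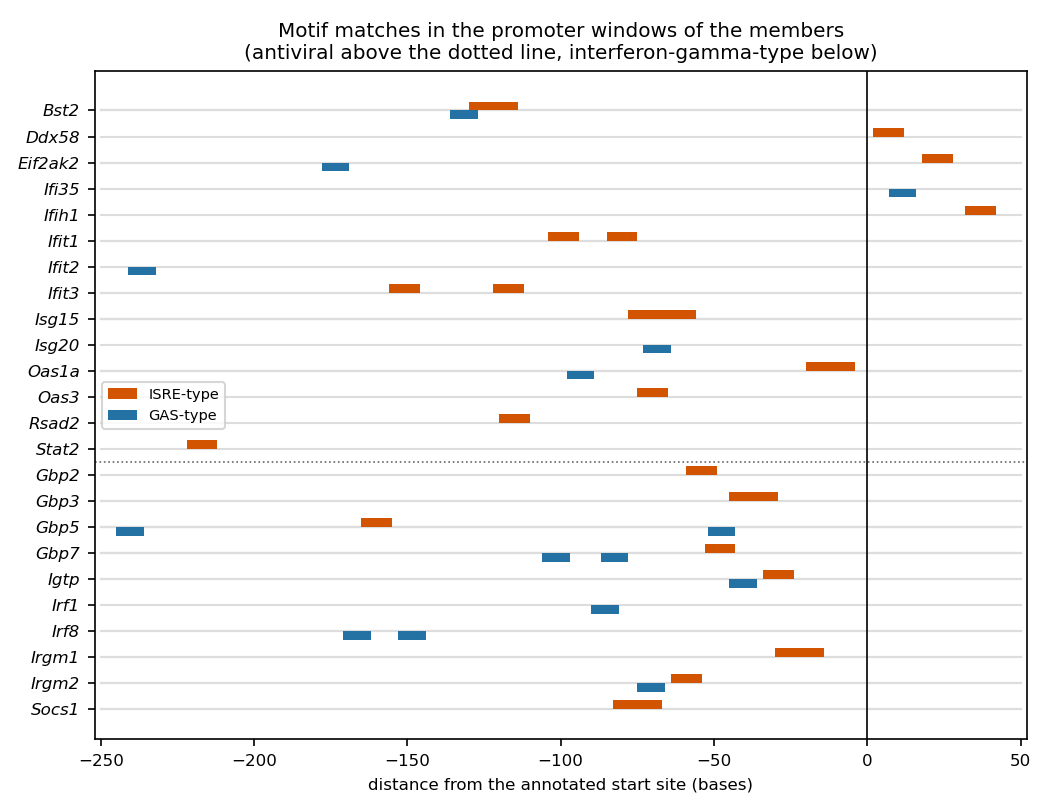
Positions of ISRE-type (orange) and GAS-type (blue) matches in the promoter windows of the 24 members that hold any, as distance in bases from the annotated start site. Antiviral members stand above the dotted line and interferon-gamma-type members below it, and most matches of both kinds lie before the start.

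The antiviral members were modestly higher with IMQ in f/f skin and not in EKO skin. The median IMQ difference of the 31 members was -0.05 in EKO and 0.25 in f/f, while the median of all named genes was -0.01 in each. In EKO, 12 of 31 were above 0 and 19 below, where 46.9% and 52.8% of all named genes were, and in f/f 22 of 31 were above 0 and 9 below, against 48.8% and 51% of all named genes. To count larger differences, a gene had to reach the median level of all named genes (6.93 to 6.98, called the floor) on at least 1 array of the comparison. By that rule 0 antiviral members were 2-fold higher or lower with IMQ in either genotype. Of all genes above the floor, 0.671% in EKO and 3.82% in f/f were 2-fold higher, and 0.0972% in EKO and 2.63% in f/f 2-fold lower. At 1.5-fold, 0 of 26 members above the floor were higher in EKO, where 2.66% of genes were. In f/f 4 of 27 were, namely Oas3, Oas1a, Oas2 and Rsad2, beside 10.2% of all genes above the floor, so the count is close to the background. Oas3, Oas1a and Rsad2 reached the floor in this comparison on the f/f IMQ array alone, where they were high, so they could enter the count only as higher. At 1.5-fold 0 members were lower in either genotype, where 0.807% of genes in EKO and 9.53% in f/f were.

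**Figure D2:**
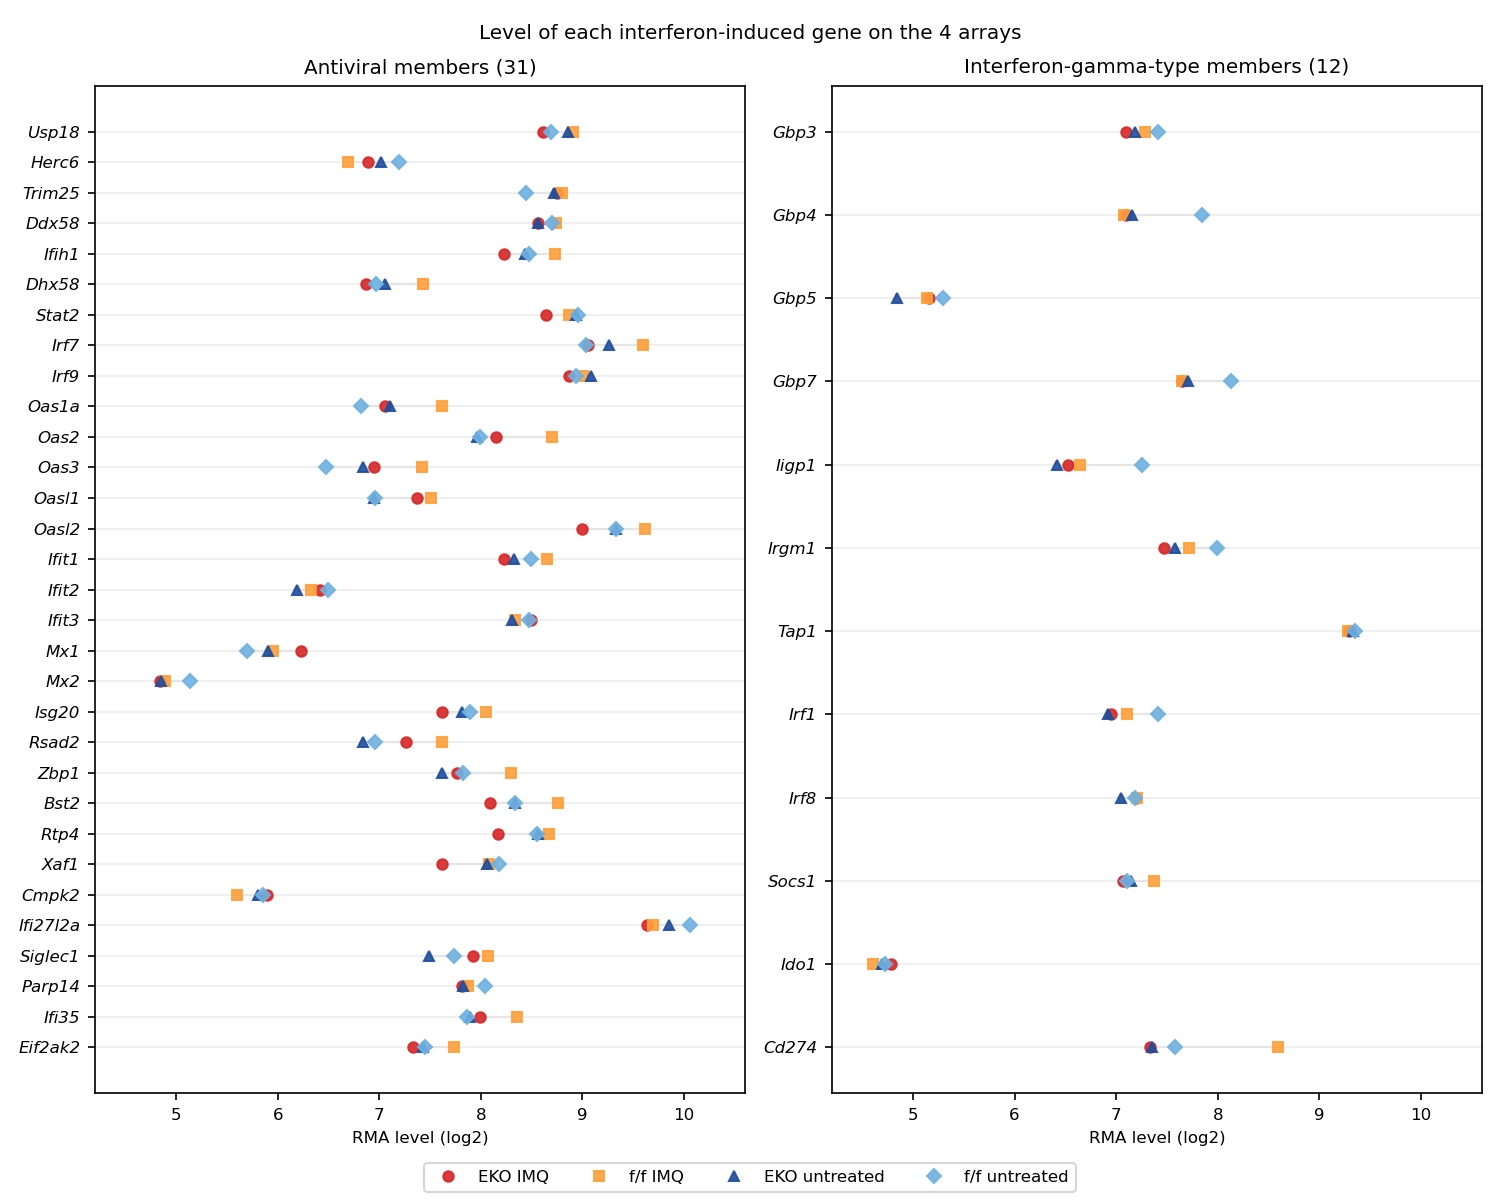
RMA level (log2) of each measured member on the 4 arrays, antiviral members on the left and interferon-gamma-type members on the right. Each marker is 1 array; levels of different genes are not comparable because each has its own probes. The 5 OAS members have their highest marker in f/f IMQ skin, and the Gbp and Irg genes in f/f untreated skin.

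The 5 members of the 2′-5′-oligoadenylate synthetase (OAS) family had a median IMQ difference of 0.11 in EKO and 0.70 in f/f. OAS enzymes make 2′-5′-linked oligoadenylates that switch on RNase L, and Oasl1 and Oasl2 encode relatives of these enzymes. These 5 were highest in f/f IMQ skin, where 33.3% of all named genes were, but 0 of 6 further OAS genes on the wider antiviral list were. Oas1b, Oas1c, Oas1d and Oas1e were highest in EKO untreated and Oas1f and Oas1h in EKO IMQ skin. Of these, Oas1c, Oas1d, Oas1e and Oas1h were under the floor (the median level of all named genes) on every array. Oas1f was at 10.98 in EKO IMQ against 10.54 in f/f IMQ skin, and 10.82 in untreated EKO against 10.52 in untreated f/f skin, an IMQ difference of 0.15 in EKO and 0.01 in f/f. Oas3 was at 6.94 in EKO IMQ and 7.42 in f/f IMQ skin, and at 6.84 in EKO untreated and 6.47 in f/f untreated skin. Its IMQ difference was 0.11 in EKO and 0.95 (1.93-fold) in f/f. Oas1a was at 7.06 in EKO IMQ and 7.61 in f/f IMQ skin, and at 7.11 in EKO untreated and 6.82 in f/f untreated skin, so that its IMQ difference was -0.05 in EKO and 0.79 (1.73-fold) in f/f. Without IMQ both genes were somewhat higher in EKO than in f/f, by 0.37 for Oas3 and 0.29 for Oas1a, the 2 highest such differences of any member. The smaller IMQ difference in EKO was thus made up of a lower level with IMQ and a higher level without it.

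Oas2 was at 8.15 in EKO IMQ against 8.70 in f/f IMQ skin, and 7.96 in untreated EKO against 8.00 in untreated f/f skin. Here the untreated arrays lay within 0.04 of each other, and the IMQ difference was 0.19 in EKO and 0.70 in f/f. Oasl1, at 7.37 in EKO IMQ against 7.51 in f/f IMQ skin, and 6.95 in untreated EKO against 6.96 in untreated f/f skin, was higher with IMQ in both genotypes, by 0.42 in EKO and 0.55 in f/f. Oasl2 ran the other way in EKO. It was at 8.99 in EKO IMQ against 9.62 in f/f IMQ skin, and 9.33 in untreated EKO against 9.33 in untreated f/f skin, a difference of -0.34 in EKO and 0.28 in f/f. Oas1a has near-identical relatives in the mouse genome, and its probe set may read more than its own transcript.

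The 3 IFIT genes had a median IMQ difference of 0.19 in EKO and -0.13 in f/f. IFIT proteins bind viral RNA that lacks host cap marks. Ifit1 was at 8.23 in EKO IMQ against 8.65 in f/f IMQ skin, and 8.32 in untreated EKO against 8.49 in untreated f/f skin, differing with IMQ by -0.10 in EKO and 0.15 in f/f. Ifit3 was at 8.49 in EKO IMQ against 8.34 in f/f IMQ skin, and 8.30 in untreated EKO against 8.47 in untreated f/f skin, so it was higher with IMQ in EKO (0.19) and lower in f/f (-0.13). Ifit2 showed the same signs (0.23 in EKO and -0.17 in f/f) and was under the floor on every array, at 6.41 in EKO IMQ against 6.32 in f/f IMQ skin, and 6.19 in untreated EKO against 6.49 in untreated f/f skin. Mx1 and Mx2, dynamin-like GTPases against viruses, were also under the floor on every array. Mx1 was at 6.23 in EKO IMQ against 5.95 in f/f IMQ skin, and 5.90 in untreated EKO against 5.70 in untreated f/f skin, higher with IMQ by 0.33 in EKO and 0.25 in f/f. Mx2 was at 4.85 in EKO IMQ against 4.89 in f/f IMQ skin, and 4.85 in untreated EKO against 5.14 in untreated f/f skin, so that it stood highest in untreated f/f skin. Cmpk2, a nucleotide kinase gene next to Rsad2 and likewise under the floor, was at 5.89 in EKO IMQ against 5.60 in f/f IMQ skin, and 5.81 in untreated EKO against 5.85 in untreated f/f skin.

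The cytosolic RNA sensors were highest in f/f IMQ skin and lowest in EKO IMQ skin, all 3 of them. Of all named genes, 33.3% were highest on the first of these arrays and 21.6% lowest on the second. Dhx58 (LGP2), a regulator of the other sensors, was at 6.87 in EKO IMQ against 7.43 in f/f IMQ skin, and 7.05 in untreated EKO against 6.97 in untreated f/f skin, an IMQ difference of -0.18 in EKO and 0.46 in f/f. Ifih1 (MDA5) was at 8.23 in EKO IMQ against 8.73 in f/f IMQ skin, and 8.44 in untreated EKO against 8.47 in untreated f/f skin and differed by -0.21 in EKO and 0.26 in f/f. Ddx58 (RIG-I) was at 8.56 in EKO IMQ against 8.74 in f/f IMQ skin, and 8.56 in untreated EKO against 8.70 in untreated f/f skin, and its 2 EKO arrays were equal to 2 decimals.

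Irf7, the transcription factor that amplifies interferon-alpha production, had the highest f/f difference of the 3 transcription factors among the antiviral members. It was at 9.05 in EKO IMQ against 9.60 in f/f IMQ skin, and 9.26 in untreated EKO against 9.03 in untreated f/f skin. Its IMQ difference was -0.20 in EKO and 0.56 (1.48-fold) in f/f. Stat2 and Irf9, partners in the complex that binds the ISRE, differed less. Stat2 was at 8.64 in EKO IMQ and 8.87 in f/f IMQ skin, and at 8.93 in EKO untreated and 8.95 in f/f untreated skin. Irf9 lay between 8.87 in EKO IMQ and 9.08 in EKO untreated skin. All 3 were lower with IMQ in EKO (-0.20 to -0.29), where 52.8% of all named genes were.

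Genes of ISG15 conjugation were split. Usp18, which removes ISG15 and dampens the type I interferon receptor, was at 8.61 in EKO IMQ against 8.90 in f/f IMQ skin, and 8.86 in untreated EKO against 8.69 in untreated f/f skin, an IMQ difference of -0.25 in EKO and 0.22 in f/f. Trim25, a ubiquitin ligase that activates RIG-I, was at 8.74 in EKO IMQ against 8.80 in f/f IMQ skin, and 8.72 in untreated EKO against 8.45 in untreated f/f skin. It was low on the untreated f/f array alone, and its IMQ difference was 0.03 in EKO and 0.35 in f/f. Herc6, the mouse ISG15 ligase, was lower with IMQ, at 6.89 in EKO IMQ against 7.02 in EKO untreated, and at 6.70 in f/f IMQ against 7.19 in f/f untreated skin. Its f/f difference of -0.50 was the lowest of the antiviral members.

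Among the other effectors, Bst2 (tetherin), which holds budding virus on the cell surface, was at 8.09 in EKO IMQ against 8.75 in f/f IMQ skin, and 8.34 in untreated EKO against 8.34 in untreated f/f skin. The untreated arrays were thus alike, and IMQ arrays lay on opposite sides of them, by -0.25 in EKO and 0.41 in f/f. Rsad2 (viperin) was at 7.26 in EKO IMQ against 7.62 in f/f IMQ skin, and 6.84 in untreated EKO against 6.96 in untreated f/f skin, higher with IMQ by 0.42 in EKO and 0.66 in f/f. Siglec1, a macrophage lectin, had the highest EKO difference of any member (0.43), at 7.92 in EKO IMQ and 7.49 in EKO untreated skin. In f/f it was at 8.07 with IMQ and 7.73 untreated. Zbp1, a sensor of Z-form nucleic acid, was at 7.76 in EKO IMQ against 8.29 in f/f IMQ skin, and 7.61 in untreated EKO against 7.83 in untreated f/f skin. It was higher with IMQ by 0.15 in EKO and 0.46 in f/f.

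Ifi35 was at 7.99 in EKO IMQ against 8.36 in f/f IMQ skin, and 7.90 in untreated EKO against 7.86 in untreated f/f skin, higher with IMQ by 0.10 in EKO and 0.49 in f/f. Eif2ak2, which encodes the RNA-activated kinase PKR, was at 7.33 in EKO IMQ against 7.74 in f/f IMQ skin, and 7.43 in untreated EKO against 7.45 in untreated f/f skin. Isg20, an exonuclease gene, was at 7.62 in EKO IMQ against 8.05 in f/f IMQ skin, and 7.81 in untreated EKO against 7.89 in untreated f/f skin. For all 3 the f/f IMQ array was the highest. Rtp4 and Xaf1 had the lowest IMQ differences in EKO of all members. Rtp4 was at 8.17 in EKO IMQ against 8.67 in f/f IMQ skin, and 8.56 in untreated EKO against 8.55 in untreated f/f skin, a difference of -0.39 in EKO and 0.12 in f/f. Xaf1 was at 7.62 in EKO IMQ against 8.08 in f/f IMQ skin, and 8.06 in untreated EKO against 8.18 in untreated f/f skin, so that the EKO IMQ array stood alone below the others. Its difference was -0.44 in EKO and -0.10 in f/f. Ifi27l2a was lower with IMQ in both genotypes, by -0.22 in EKO and -0.37 in f/f, at 9.63 in EKO IMQ and 9.69 in f/f IMQ skin, and at 9.85 in EKO untreated and 10.06 in f/f untreated skin. Parp14 was highest in f/f untreated skin (8.04) and lay at 7.82 to 7.88 on the other arrays.

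**Figure D3:**
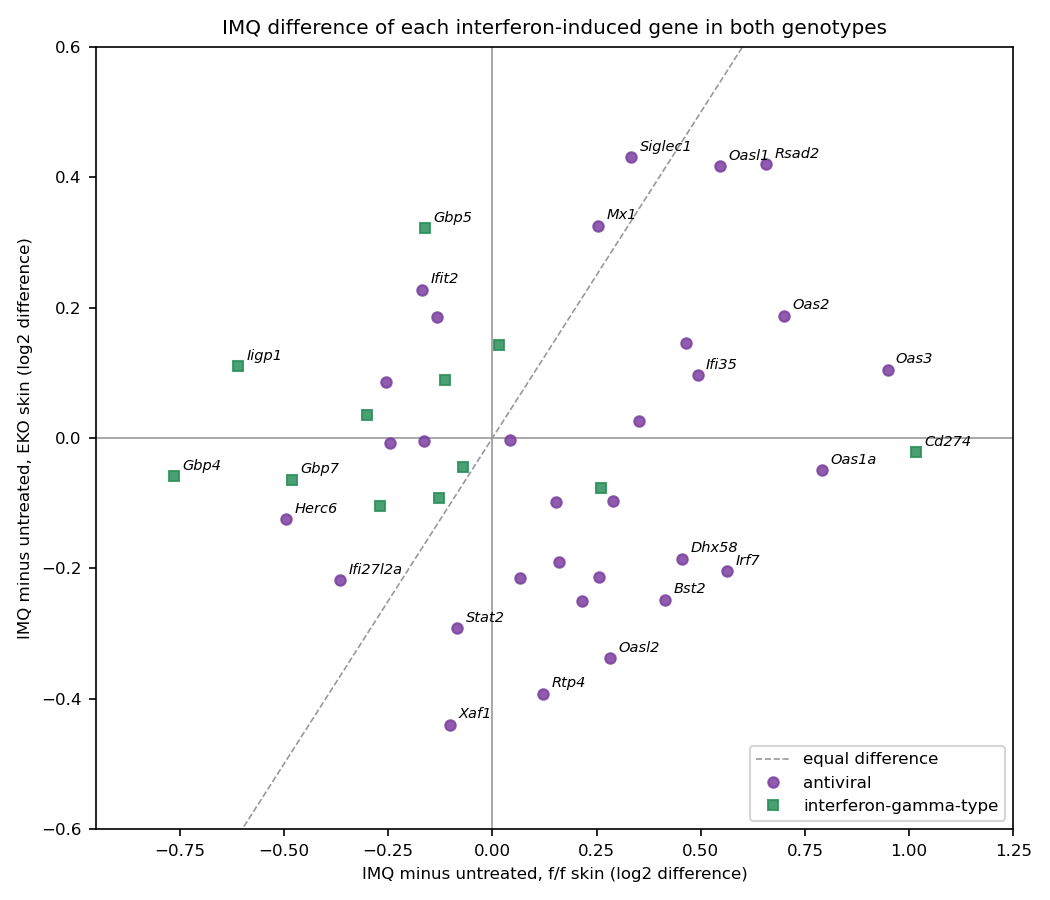
IMQ difference (log2, IMQ minus untreated) of each measured member in EKO skin (vertical axis, which spans a shorter range) and f/f skin (horizontal axis), antiviral members as purple circles and interferon-gamma-type members as green squares. The dashed line marks equal differences; Oas3 lies at 0.11 in EKO and 0.95 in f/f, and Cd274 at -0.02 in EKO and 1.02 in f/f.

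The 2 IMQ differences share no array. Of the 31 antiviral members, 13 were lower with IMQ in EKO and higher in f/f, where 15.5% of all named genes were, and 3 (Ifit2, Ifit3 and Cmpk2) were the other way round, where 13.8% of all named genes were. Another 9 were higher in both genotypes and 6 lower in both, beside 6594 and 7403 of all 19938 named genes. Across the antiviral members the Pearson correlation of the 2 differences was 0.28 (n = 31), against 0.73 across all 19938 named genes. The antiviral differences span a narrower range, from -0.50 to 0.95 in f/f, while all named genes include S100a8 at 5.01. A narrower range can lower a correlation, so the coefficients are not directly comparable. Genes on an array share its RNA and scaling and are not independent.

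With IMQ, most antiviral members were lower in EKO than in f/f skin, a comparison that shares the f/f IMQ array with the IMQ difference in f/f. The median difference was -0.36, and 26 of 31 members were below 0, where 52.4% of all named genes were. At 1.5-fold 2 of 26 members above the floor were lower in EKO, Bst2 (-0.67) and Oasl2 (-0.63), beside 2.61% of genes, and 0 were higher, beside 2.03%. At 2-fold 0 members were higher or lower, beside 0.418% and 0.875% of genes. Dhx58 (-0.56), Oas1a (-0.55), Oas2 (-0.55), Irf7 (-0.54) and Zbp1 (-0.53) came next. The 5 members above 0, where 47.4% of all named genes were, were Cmpk2 (0.30), Mx1 (0.27), Herc6 (0.20), Ifit3 (0.15) and Ifit2 (0.09), of which Cmpk2, Mx1 and Ifit2 were under the floor on every array. Without IMQ, EKO and f/f differed little in these genes. The median was -0.03, 10 of 31 were above 0 where 49% of all named genes were, and 0 of 24 members above the floor reached 1.5-fold in either direction, beside 0.647% of genes higher and 1.06% lower (at 2-fold, 0.0686% and 0.324%). The lowest member was Ifit2, at -0.31.

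The difference of the IMQ differences (EKO minus f/f) had a median of -0.32 over the 31 antiviral members, and 22 of them were below 0, where 50.9% of all named genes were. At 1.5-fold 6 of 27 members above the floor were lower, beside 4.63% of genes, namely Oas3 (-0.84), Oas1a (-0.84), Irf7 (-0.77), Bst2 (-0.66), Dhx58 (-0.64) and Oasl2 (-0.62). At 1.5-fold 0 were higher, beside 3.65%. Oas3 reached the floor on the f/f IMQ array alone. Dhx58 reached it on the f/f IMQ and EKO untreated arrays alone. A high level on those arrays lowers this difference, so neither gene could readily enter the count as higher. This comparison uses the same 4 arrays as those above and adds no separate evidence. Opposite signs of the IMQ difference in the genotypes, joined with a 1.5-fold difference of differences, were found for Oas1a, Irf7, Bst2, Dhx58 and Oasl2, and for 1.42% of genes above the floor.

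**Figure D4:**
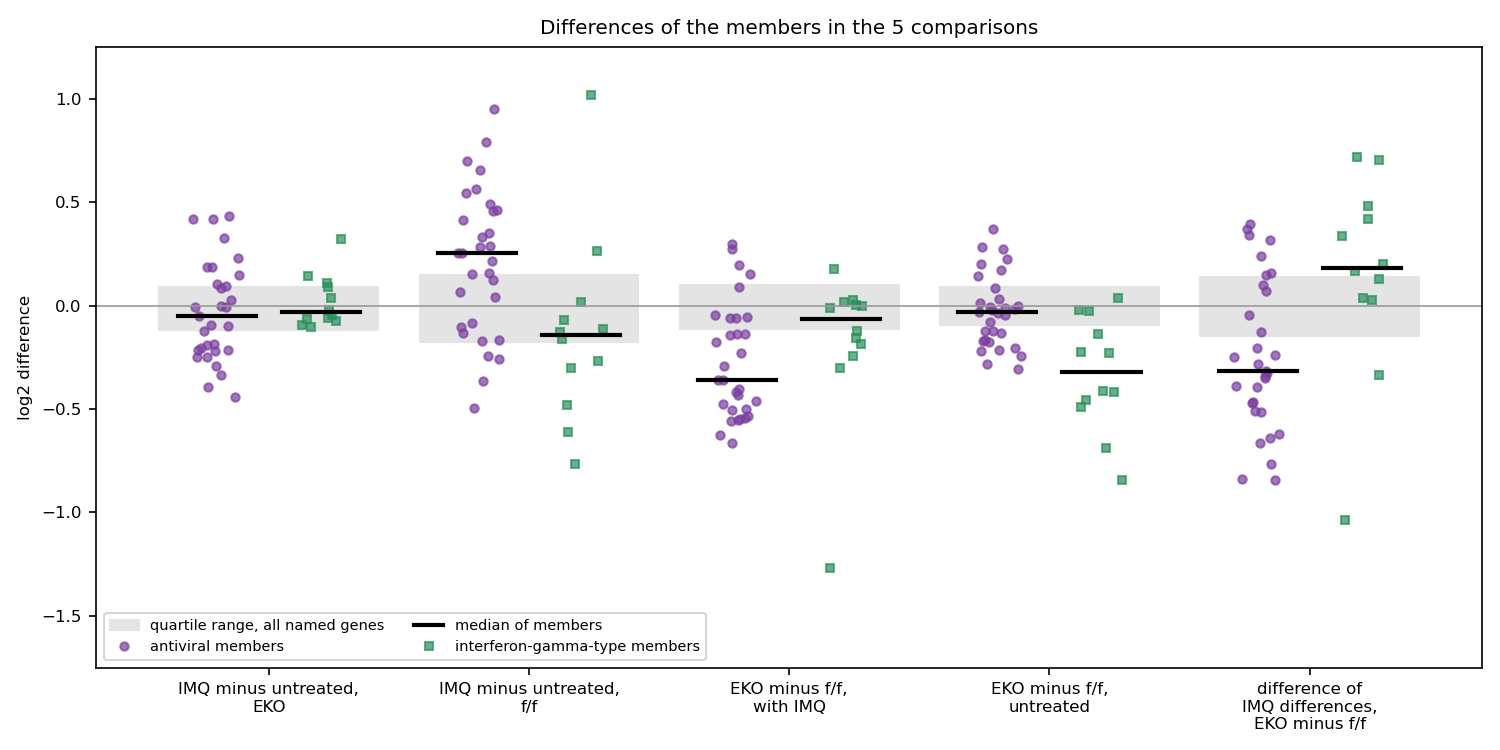
Log2 differences of the 31 antiviral (purple circles) and 12 interferon-gamma-type members (green squares) in the 5 comparisons, with a black bar at each median and a grey band for the quartile range of all named genes. The antiviral median lies at 0.25 for IMQ in f/f and at -0.36 for EKO minus f/f under IMQ. The interferon-gamma-type median lies at -0.32 for EKO minus f/f untreated.

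For the interferon-gamma-type members the untreated arrays differed. They were lower in EKO than in f/f untreated skin (median -0.32, 11 of 12 below 0, where 50.8% of all named genes were), while with IMQ the median was -0.07 and 8 of 12 were below 0, beside 52.4% of all named genes. With IMQ their median difference was -0.03 (EKO) and -0.14 (f/f), and 5 of 12 in EKO and 3 of 12 in f/f were above 0, beside 46.9% and 48.8% of all named genes. The narrower set of Gbp, Irg and Tap1 genes had the same array at its top. All 7 measured were highest in f/f untreated skin, where 32% of all named genes were. The lower EKO value without IMQ (median -0.42) and the lower IMQ value in f/f (median -0.27) rest on that same array. For Gbp4, Gbp7, Iigp1 and Irgm1 the gap from that array to the next was wider than the range of the other 3 arrays, and for Gbp3, Gbp5 and Tap1 it was narrower. By contrast, 20 of 31 antiviral members were highest in f/f IMQ skin and 7 in f/f untreated skin, beside 33.3% and 32% of all named genes. The wider antiviral list lay closer to all named genes. Of its 51 measured genes, 22 (43.1%) were highest in f/f IMQ and 19 (37.3%) in f/f untreated skin.

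GBP proteins are large GTPases that attack the vacuoles of intracellular pathogens. Gbp4 was at 7.09 in EKO IMQ against 7.08 in f/f IMQ skin, and 7.15 in untreated EKO against 7.84 in untreated f/f skin. The f/f untreated array was thus 0.69 above the next, and the other 3 lay within 0.08. Gbp7 was at 7.65 in EKO IMQ against 7.65 in f/f IMQ skin, and 7.71 in untreated EKO against 8.13 in untreated f/f skin, a gap of 0.42 above arrays that lay within 0.06. Gbp3 was at 7.09 in EKO IMQ against 7.28 in f/f IMQ skin, and 7.18 in untreated EKO against 7.41 in untreated f/f skin, with a gap of only 0.13. Gbp5, which also promotes inflammasome assembly, was under the floor on every array, at 5.16 in EKO IMQ against 5.14 in f/f IMQ skin, and 4.84 in untreated EKO against 5.30 in untreated f/f skin.

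IRG proteins are smaller GTPases with the same targets. Iigp1 was at 6.52 in EKO IMQ against 6.65 in f/f IMQ skin, and 6.41 in untreated EKO against 7.26 in untreated f/f skin, above the floor on the last array alone. Its EKO minus f/f difference was -0.12 with IMQ and -0.84 (1.79-fold lower in EKO) without. Irgm1, a regulator of the other IRG proteins, was at 7.47 in EKO IMQ against 7.72 in f/f IMQ skin, and 7.58 in untreated EKO against 7.99 in untreated f/f skin. Tap1, a subunit of the transporter that brings peptides to MHC class I, stayed between 9.28 and 9.35. At 1.5-fold, 2 of 10 interferon-gamma-type members above the floor were lower in EKO than in f/f untreated skin, Iigp1 and Gbp4, beside 1.06% of genes. The same 2 were 1.5-fold lower with IMQ in f/f (-0.61 and -0.76), beside 9.53% of genes. The difference of the IMQ differences (EKO minus f/f) had a median of 0.18 over the 12 members, and 10 were above 0, where 49.1% of all named genes were. Iigp1 (0.72) and Gbp4 (0.70) were past 1.5-fold, beside 3.65% of genes. Iigp1 reached the floor on the f/f untreated array alone, where it was high. It could therefore enter the counts for EKO minus f/f untreated and for IMQ in f/f only as lower. In the difference of differences it could hardly enter other than as higher. GBP and IRG genes have close relatives, so a probe set may read more than its own gene.

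Irf1, the transcription factor that carries much of the interferon-gamma response, was likewise highest in f/f untreated skin. It was at 6.95 in EKO IMQ against 7.11 in f/f IMQ skin, and 6.92 in untreated EKO against 7.41 in untreated f/f skin. Its second, dimmer probe set gave -0.11 in place of -0.49 for EKO minus f/f untreated and 0.25 in place of -0.15 with IMQ, so the probe sets disagree with IMQ in direction. Irf8, a factor of myeloid and dendritic cells, lay between 7.05 and 7.20. Socs1, the feedback inhibitor of JAK kinases, was highest in f/f IMQ skin, at 7.07 in EKO IMQ against 7.37 in f/f IMQ skin, and 7.14 in untreated EKO against 7.11 in untreated f/f skin. Ido1, a tryptophan-degrading enzyme, was under the floor on every array, at 4.78 in EKO IMQ against 4.61 in f/f IMQ skin, and 4.70 in untreated EKO against 4.72 in untreated f/f skin.

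Cd274, which encodes the T cell inhibitor PD-L1, was the only member to pass 2-fold in any comparison. It was at 7.33 in EKO IMQ against 8.60 in f/f IMQ skin, and 7.35 in untreated EKO against 7.58 in untreated f/f skin. The f/f IMQ array stood 1.02 above the next, and the other 3 lay within 0.25. Its IMQ difference was -0.02 in EKO and 1.02 (2.02-fold) in f/f, where 3.82% of genes passed 2-fold upward. Under IMQ the EKO level was 2.41-fold below the f/f level (-1.27), where 0.875% of genes were at least 2-fold lower, and without IMQ the difference was -0.23. The difference of the IMQ differences was -1.04, beside 1.18% of genes at least 2-fold lower.

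Other genes of the pathway were taken from lists by role. Of 21 listed interferon genes 16 were measured, and their medians lay between -0.05 and -0.01 in all 5 comparisons. Only 3 of the 16, Ifna5, Ifnz and Ifnl2, reached the floor, so the medians rest mostly on low values. Ifnl2 had an IMQ difference of -0.34 in EKO and 0.09 in f/f, and was -0.40 for EKO minus f/f with IMQ. Ifnb1 (4.74 to 4.88) and Ifng (5.55 to 5.59) were under the floor on every array and differed by at most 0.09 in each comparison. The 6 receptor chains had medians of -0.08 with IMQ in EKO and -0.11 in f/f. Ifngr1, the ligand-binding chain of the interferon-gamma receptor, was lower with IMQ in both, by -0.42 and -0.47. Tlr7 was at 6.30 in EKO IMQ against 6.08 in f/f IMQ skin, and 6.40 in untreated EKO against 6.53 in untreated f/f skin, under the floor on all arrays, and Myd88, its adaptor, was higher with IMQ by 0.27 in EKO and 0.98 in f/f.

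Of 7 negative regulators, 3 were above 0 with IMQ in EKO (median -0.04) and 5 in f/f (median 0.53), beside 46.9% and 48.8% of all named genes. Socs3, a STAT3-induced inhibitor of cytokine receptors, differed by -0.04 in EKO and 1.02 in f/f. Tnfaip3 (A20), an inhibitor of NF-kB, differed by -0.31 in EKO and 0.53 in f/f.

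A further list of 58 antiviral genes, 51 of them measured, was also read. Its median IMQ difference was -0.06 (EKO) and 0.06 (f/f), with 21 and 28 of 51 above 0, where 46.9% and 48.8% of all named genes were. Of those above the floor, 1 of 38 in EKO and 6 of 40 in f/f were at least 1.5-fold higher, near the 2.66% and 10.2% of all genes above the floor. In f/f, Slfn4, Slfn1, Slfn9 and Helz2 reached the floor on the f/f IMQ array alone. In EKO, Slfn4 reached it on the EKO IMQ array alone. These genes could therefore enter the counts only as higher. Slfn4, a Schlafen gene of myeloid cells, led by far. It was at 7.76 in EKO IMQ against 9.76 in f/f IMQ skin, and 6.82 in untreated EKO against 6.41 in untreated f/f skin, a difference of 0.95 in EKO and 3.35 in f/f. Slfn1 differed by 0.42 in EKO and 1.09 in f/f. Trim12a was the lowest with IMQ in both genotypes (-1.05 in EKO and -1.28 in f/f).

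As with the members, 6 of 7 further GBP and IRG genes were highest in f/f untreated skin, beside 32% of all named genes. They had medians of 0.00 with IMQ in EKO and -0.39 in f/f, 0.08 for EKO minus f/f with IMQ and -0.33 without, although most values were under the floor. The 3 chemokines that bind CXCR3, which interferon-gamma induces, are given next. Cxcl9 was at 7.79 in EKO IMQ against 8.59 in f/f IMQ skin, and 7.21 in untreated EKO against 8.69 in untreated f/f skin, so that both EKO arrays were below both f/f arrays. Cxcl10 was at 8.36 in EKO IMQ against 7.72 in f/f IMQ skin, and 6.66 in untreated EKO against 7.83 in untreated f/f skin, low on the EKO untreated array alone. Cxcl11 lay between 5.30 and 5.38. Of 11 MHC class I and immunoproteasome genes, 0 reached 1.5-fold in any comparison. Of all genes above the floor, 0.647% to 10.2% did so in a given direction and comparison. MHC class II genes were lower with IMQ, 6 of 6 in each genotype, at medians of -0.57 in EKO and -0.83 in f/f. Of all named genes, 52.8% in EKO and 51% in f/f were lower.

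**Figure D5:**
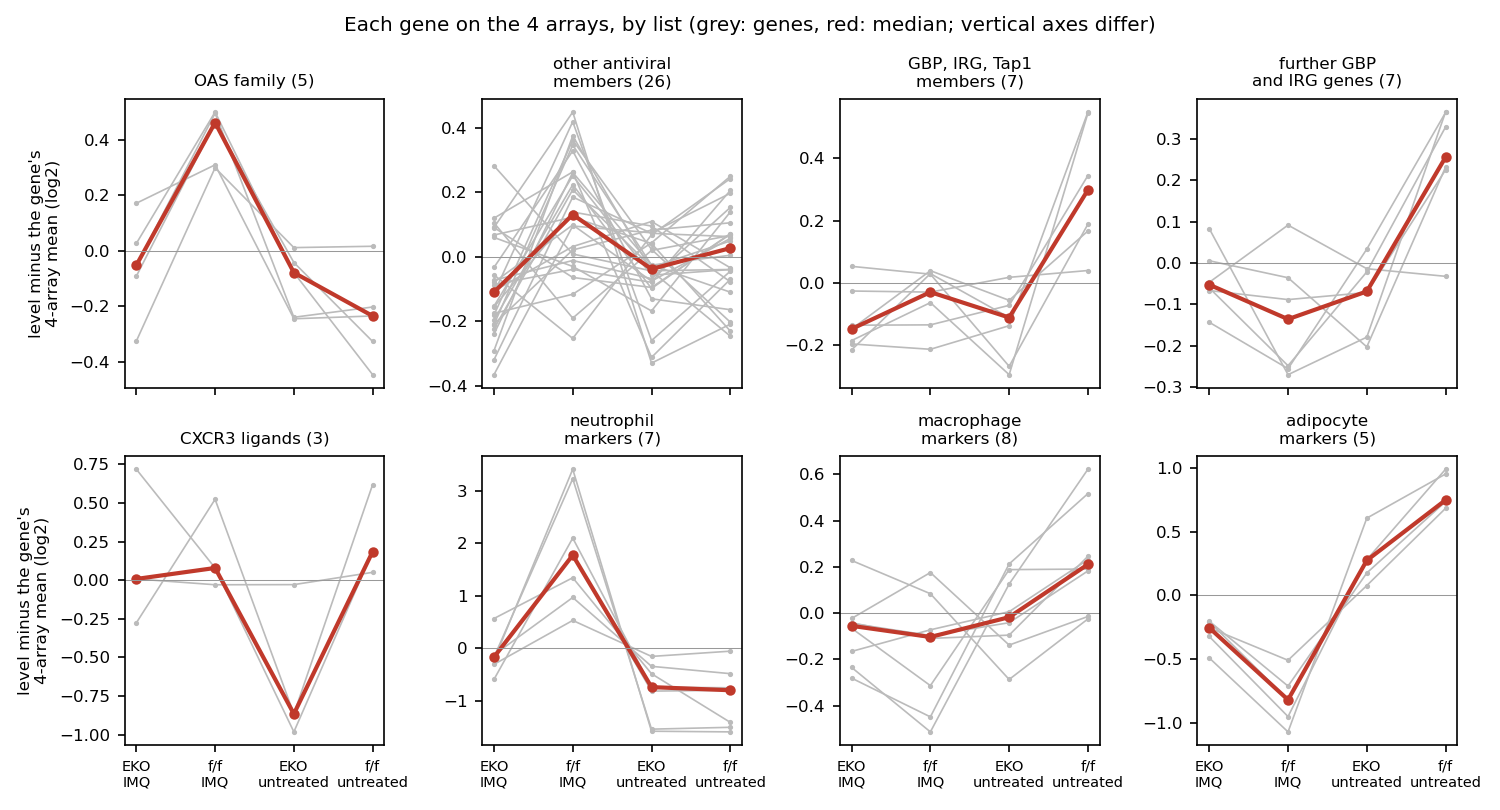
Level of each gene minus its mean over the 4 arrays (log2) for 8 gene lists, with grey lines for genes and red for the list median; lines join the values of a gene and show no order of time, and vertical axes differ. The 5 OAS members and the neutrophil markers are highest in f/f IMQ skin, and the 7 Gbp, Irg and Tap1 members and the adipocyte markers in f/f untreated skin.

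Markers of several cell types, but not of all, were highest on the arrays where members were. All 7 neutrophil markers were highest in f/f IMQ skin, as were the 5 OAS members, Cd274 and 33.3% of all named genes. The median IMQ differences of these markers were 0.67 in EKO and 2.76 in f/f. S100a8, a calprotectin subunit that keratinocytes also make, was at 7.54 in EKO IMQ against 11.18 in f/f IMQ skin, and 6.18 in untreated EKO against 6.17 in untreated f/f skin. All 5 adipocyte, 5 skeletal muscle and 5 endothelial markers and 6 of 8 macrophage markers were highest in f/f untreated skin. The Gbp, Irg and Tap1 genes were highest there too, as were 32% of all named genes. For EKO minus f/f untreated the medians of these marker lists were -0.56, -0.13, -0.18 and -0.24, against -0.42 for the 7 Gbp, Irg and Tap1 genes. The 6 keratinocyte markers ran the other way. All were higher in EKO than in f/f untreated skin (median 0.22, highest Krt1 at 0.63), where 49% of all named genes were. In f/f untreated skin 5 of 6 were lowest, beside 28.6% of all named genes. In EKO IMQ skin 4 of 6 were highest, beside 16.2% of all named genes. T cell markers had a median of 0.08 for EKO minus f/f untreated. Of them 4 of 7 were highest in EKO untreated and 0 in f/f untreated skin, beside 18.5% and 32% of all named genes. The gap of these 4 to the next array was 0.06 to 0.18, and Cd2 and Cd4 were under the floor on every array. Only 3 of the 7 reached the floor on any array. The 8 NK and cytotoxic cell markers, of which 2 reached the floor, had a median of 0.01 and were highest on different arrays. Plasmacytoid dendritic cell markers, which include the members Bst2 and Irf8, had a median of -0.004 and were also highest on different arrays. Their median IMQ difference was -0.16 in EKO and 0.02 in f/f. The medians of -0.004 and 0.02 are the values of Bst2 and Irf8 themselves, so they are not separate from the members. The -0.16 is the value of Siglech. Of the defining markers, Ly6g of neutrophils (4.61 to 5.45), Ncr1 of NK cells (4.56 to 4.65) and Siglech of plasmacytoid dendritic cells (5.68 to 5.89) were under the floor on every array. The part of any of these cell types in the interferon-gene differences was not tested.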

How the data were processed

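Total RNA of whole mouse ears was read on Affymetrix Mouse Gene 1.0 ST arrays, 4 in all and 1 per group, per the labels' protocols. The values are log2 levels that the authors made with RMA and deposited, per the submitters' processing notes. The RMA version is one of the things not stated in the sources used here, as are the annotation and the genome build. RMA corrects background, equalises the arrays' distributions and summarises the probes of a set, so a shift of all genes between arrays would be removed.

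Of 35556 probe sets, the platform annotation gave 21789 a single symbol and 1621 several, and 12146 were not listed with a gene. Each of 19938 named genes was read from its brightest such probe set, by the mean over all 4 arrays. Differences of log2 levels were taken between arrays, and fold counts required a level no lower than that array's median over named genes on 1 or more of the arrays compared. The platform symbols of 43 measured members matched RefSeq (GRCm38.p6) through the Entrez identifier. The calculation was tested on simulated data with an assumed noise and with effects larger than any member difference here. That checks the code and says nothing of the noise in these arrays.

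With 1 array per group no test was run and no error could be given. Every listed member may be named, and other genes were named by role, by passing 2-fold or as the highest or lowest of a list; defining markers and Traf6 were added. The members and lists were chosen with earlier results of these data known. Alternatives were median centring, cyclic loess and quantile normalization, the mean of probe sets, other floors and thresholds and other list summaries. Python 3.11.15, numpy 2.4.6, pandas 2.3.3, matplotlib 3.10.9, R 4.3.3 and limma 3.58.1 were used, limma for normalization alone.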

Additional observations from a re-analysis of the deposited data

Results flagged for a closer look

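The IMQ difference had opposite signs in the 2 genotypes for the median of the antiviral members and for 7 single members whose difference of differences passed 1.5-fold. With 1 array per group none of these differences was tested, and opposite signs joined with a 1.5-fold difference of differences were found for 1.42% of genes above the floor. The antiviral median of -0.05 in EKO against 0.25 in f/f gave an EKO minus f/f value of -0.30. Among antiviral members the value was -0.84 for Oas1a, -0.77 for Irf7, -0.66 for Bst2, -0.64 for Dhx58 and -0.62 for Oasl2, each lower with IMQ in EKO and higher in f/f. Cd274 gave -1.04, with -0.02 in EKO and 1.02 in f/f. Iigp1 gave 0.72, with 0.11 in EKO and -0.61 in f/f. Dhx58 reached the floor only on arrays that lower the difference of differences, and Iigp1 only on the f/f untreated array, which raises it. The EKO differences of Oas1a (-0.05) and Cd274 are close to 0, so their sign carries little.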

How the results depend on the processing

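None of the list medians and single-member differences that were past the thresholds changed sign under median centring, cyclic loess, quantile normalization or the mean of probe sets. These scalings moved the median of all named genes by at most 0.05 and a member by at most 0.08. List medians close to 0 did change sign under at least 1 alternative: the antiviral EKO minus f/f median without IMQ (-0.05 to 0.00), the IMQ median in EKO of the interferon-gamma-type members (-0.06 to 0.02) and of the Gbp, Irg and Tap1 members (-0.06 to 0.01), and the EKO minus f/f median with IMQ of that last set (-0.07 to 0.01). The interferon-gamma-type EKO minus f/f value with IMQ was -0.17 as a mean and -0.07 as a median, Cd274 being its lowest member. Over members above the floor alone, the Gbp, Irg and Tap1 median was -0.37 for IMQ in f/f and 0.29 for the difference of differences. The number of antiviral members 2-fold higher with IMQ in f/f was 0 as reported and 1, Oas3, under median centring and under cyclic loess. At 1.5-fold the antiviral counts were 4 higher with IMQ in f/f, 2 lower in EKO than in f/f with IMQ and 6 lower in the difference of differences, against 0 at 2-fold. The same change gave 2 interferon-gamma-type members (Gbp4 and Iigp1, also the 2 of the Gbp, Irg and Tap1 set) lower with IMQ in f/f, lower in EKO untreated and higher in the difference of differences. For Irf1, the mean of its probe sets gave -0.30 for EKO minus f/f untreated and 0.05 with IMQ. No paired analysis was possible because each group holds 1 array. No replicate could be left out for the same reason. Ifit2, Mx1, Mx2, Cmpk2, Gbp5 and Ido1 were under the floor on every array and Oas3 and Iigp1 on all but 1; the floor is a median over named genes, not a measured background.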
